A study of Mus musculus with 9 samples.

Results

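The 51 genes described here are interferon-stimulated antiviral effector genes, the genes whose products block viruses inside the cell once interferon has been sensed. Their mouse symbols were matched to the gene identifiers of the deposited table of raw counts. All 51 were found among its 57126 genes, 1 of them (Rigi) under the older symbol Ddx58. All 51 also passed the filter on low counts and were tested together with the other genes, 17555 in all. The list follows gene function, but it was chosen with earlier results of these data known, so no test was made over the list. The cells were plasmacytoid dendritic cells (pDCs) of the mouse, isolated by fluorescence-activated sorting. They were treated with Ox-mtDNA (oxidized mitochondrial DNA), with mtDNA (mitochondrial DNA) or with phosphate-buffered saline (PBS, the vehicle), and polyadenylated RNA was sequenced from 3 libraries per treatment. Strain, genotype, age, tissue, dose and duration of treatment are not given in the sources used here, and neither is the source of the replicates. P-values therefore measure only the spread between these samples, and the sources do not say how far it is technical.

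Type I interferon binds a receptor made of IFNAR1 and IFNAR2, and the kinases JAK1 and TYK2 then phosphorylate transcription factors, among them STAT2. A complex that holds STAT2 and IRF9 binds the interferon-stimulated response element (ISRE) in promoters of antiviral genes. The products detect viral RNA, degrade it, stop its translation, trap viral capsids or membranes, or mark proteins for removal. pDCs are known for making large amounts of type I interferon through the endosomal receptors TLR7 and TLR9, and they keep the transcription factor IRF7 and many interferon-stimulated genes switched on at rest.

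Total counts ranged from 16029951 to 25378884 per library, and levels are given as CPM, the unit for counts scaled to library size, here with TMM factors. Between replicates of one treatment the chi-square of the counts was 15.4 to 347 per degree of freedom, where counting error alone gives a value near 1. Replicate 3 of all 3 treatments separated from replicates 1 and 2 along the first principal component, which held 70.7% of the variance. Xist, a transcript of the inactive X chromosome, had 2087, 1928 and 818 CPM in replicate 3 of Ox-mtDNA, mtDNA and PBS, and 0 to 0.846 CPM in the remaining 6 libraries. Replicate number and Xist level thus go together in every treatment, and differences that go with one cannot be told apart from those of the other.

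Within replicate 3 the libraries labelled Ox-mtDNA and mtDNA were nearly alike. Their log2 CPM correlated at 0.985, and their counts differed by a chi-square per degree of freedom of 17.4. Of the 51 antiviral genes 45 differed by less than 0.5 on the log2 scale, as did 74.5% of all tested genes. In replicates 1 and 2 the same 2 treatments differed by a chi-square per degree of freedom of 139 and 165. There 3 and 6 antiviral genes lay within 0.5, against 51.1% and 46% of all tested genes. The libraries labelled mtDNA and PBS, in contrast, were close in replicates 1 and 2, at 17.5 and 21.8, and apart in replicate 3, at 138. Fold changes over all 9 libraries pool these replicates. The 3 comparisons of the 51 genes are therefore given also with the median difference in each pair of libraries of the same replicate number and with the value in replicates 1 and 2 only.

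Promoters of the antiviral genes are shown first because the ISRE is the site through which interferon is known to switch them on. Promoter sequences from RefSeq (GRCm38.p6), running from 250 bases before to 50 bases after a transcription start, were at hand for 41 of the 51 genes. The ISRE core was searched as 2 copies of GAAA with any 2 bases between them, and on the other strand as 2 copies of TTTC with the same gap. It occurred in 20 of the 41 genes (48.8%), against 3.99% of the 27025 genes with a promoter in the same table. The gamma-activated sequence (GAS), the other interferon response motif, searched as TTCNNNGAA, which reads the same on both strands, occurred in 6 of the 41 genes (14.6%), against 9.55% of all genes. Oas1a, Eif2ak2 and Ifitm3 held both motifs, and in Ifitm3 a match of one overlapped a match of the other. Not analysed here were the promoters of Mx1, Mx2, Oas2, Dhx58, Ifi27l2a, Ly6e, Parp9, Parp14, Rtp4 and Tor3a. The 250 bases before the start of 6 genes follow, read 5′ to 3′ on the strand of the gene, with ISRE core matches in capitals. Isg15, Ifit1, Oas1a and Rsad2 are shown as textbook antiviral genes, Slfn5 for its large difference between treatments, and Dtx3l as a gene without overlap between Ox-mtDNA and PBS and with no match in this window. Their positions on GRCm38.p6 are chr4:156200819-156201068 (minus strand) for Isg15, chr19:34640639-34640888 (plus strand) for Ifit1, chr5:120907526-120907775 (minus strand) for Oas1a, chr12:26456453-26456702 (minus strand) for Rsad2, chr11:82951852-82952101 (plus strand) for Slfn5 and chr16:35939028-35939277 (minus strand) for Dtx3l.
Isg15: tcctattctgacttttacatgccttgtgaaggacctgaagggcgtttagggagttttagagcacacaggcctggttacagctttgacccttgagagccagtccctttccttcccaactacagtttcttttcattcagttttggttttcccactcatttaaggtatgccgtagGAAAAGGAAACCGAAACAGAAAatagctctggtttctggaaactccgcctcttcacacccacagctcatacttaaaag
Ifit1: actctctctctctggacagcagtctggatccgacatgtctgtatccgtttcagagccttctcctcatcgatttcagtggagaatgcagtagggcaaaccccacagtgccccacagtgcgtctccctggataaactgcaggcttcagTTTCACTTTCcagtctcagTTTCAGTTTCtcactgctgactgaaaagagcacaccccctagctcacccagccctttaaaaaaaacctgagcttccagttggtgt
Oas1a: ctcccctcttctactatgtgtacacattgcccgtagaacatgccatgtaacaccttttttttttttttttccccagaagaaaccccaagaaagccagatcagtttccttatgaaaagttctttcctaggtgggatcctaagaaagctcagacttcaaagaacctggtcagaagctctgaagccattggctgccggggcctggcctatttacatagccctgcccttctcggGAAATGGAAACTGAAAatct
Rsad2: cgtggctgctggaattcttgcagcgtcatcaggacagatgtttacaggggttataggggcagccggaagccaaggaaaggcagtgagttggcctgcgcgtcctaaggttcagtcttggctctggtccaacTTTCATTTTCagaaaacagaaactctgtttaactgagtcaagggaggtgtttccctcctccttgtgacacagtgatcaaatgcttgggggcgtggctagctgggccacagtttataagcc
Slfn5: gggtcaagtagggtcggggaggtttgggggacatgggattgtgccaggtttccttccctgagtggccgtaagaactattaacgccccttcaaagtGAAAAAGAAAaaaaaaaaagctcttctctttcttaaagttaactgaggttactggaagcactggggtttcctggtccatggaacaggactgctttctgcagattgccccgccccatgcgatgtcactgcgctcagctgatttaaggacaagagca
Dtx3l: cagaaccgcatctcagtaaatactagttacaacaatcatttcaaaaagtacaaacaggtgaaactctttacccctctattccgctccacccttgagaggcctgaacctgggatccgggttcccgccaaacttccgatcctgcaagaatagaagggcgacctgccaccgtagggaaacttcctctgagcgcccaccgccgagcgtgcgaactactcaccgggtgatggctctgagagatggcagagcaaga

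In Isg15 the capitals hold 3 overlapping matches, which begin 78, 72 and 66 bases before the start, and in Oas1a 2 overlapping matches begin 20 and 14 bases before it. Ifit1 holds 2 separate matches on the other strand, and Rsad2 holds 1. Of the 20 genes with a match, 20 had a lower level after Ox-mtDNA than after mtDNA, with a median log2 fold change of -1.80. Of the 21 genes without a match, 21 were lower as well, with a median of -1.06. Of all tested genes 45.7% were lower. The counts pool the 9 libraries, and the replicate 3 pair was not examined by motif. Over all 51 genes the median log2 difference in that pair was 0.11. A match is a description of these letters and not a measured site of binding.

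**Figure D1:**
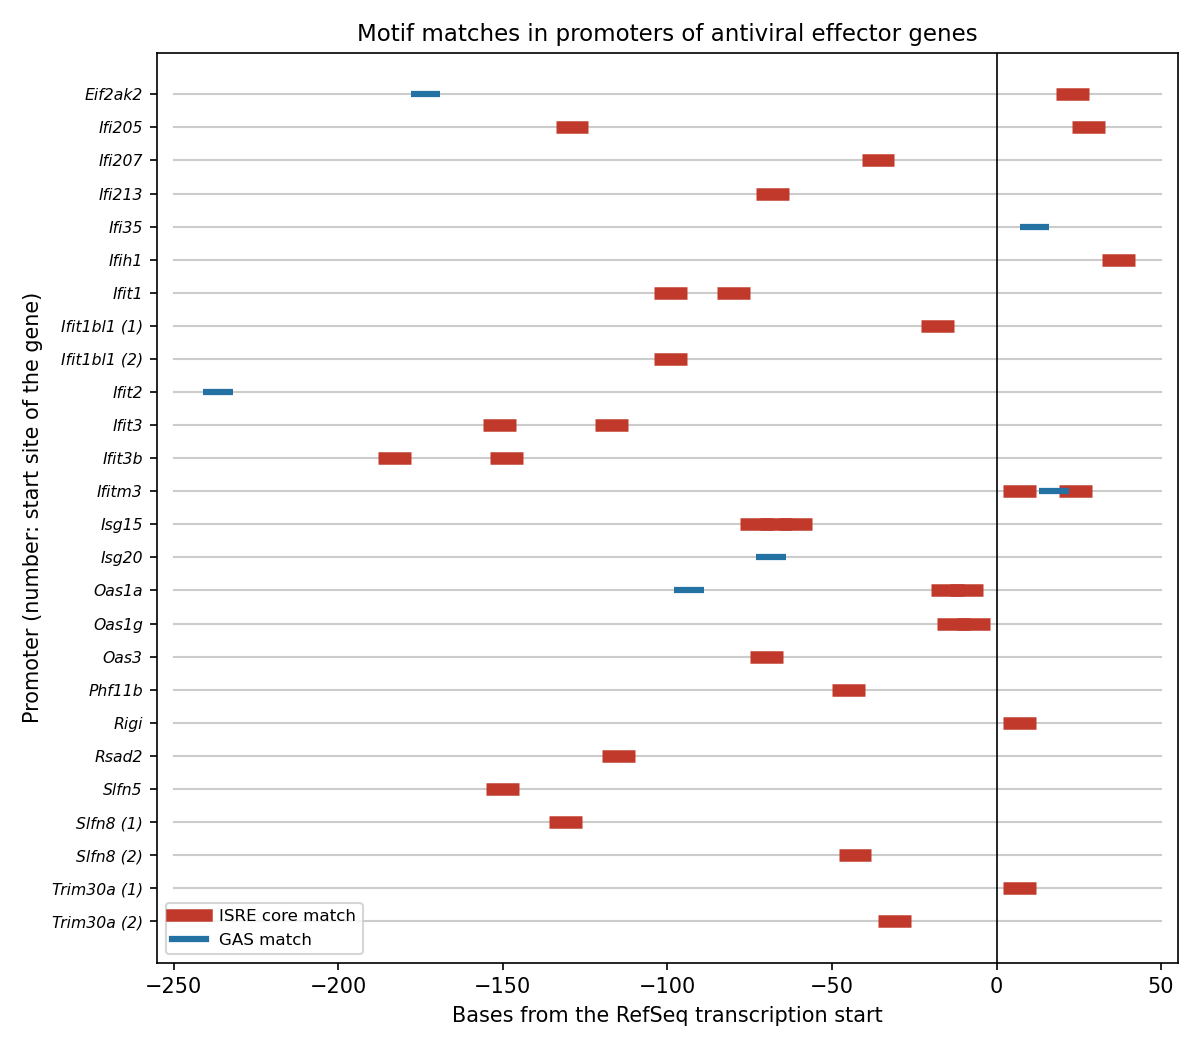
Positions of ISRE core matches (thick red) and GAS matches (thin blue) in the promoters of antiviral effector genes with at least 1 match, in bases from the RefSeq transcription start, with the start at 0 and 1 row per start site. ISRE matches lie on both sides of the start and are found in 20 of the 41 genes with a promoter.

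Setting Ox-mtDNA against PBS addresses how the cells responded to oxidized mitochondrial DNA. Most antiviral genes were at lower levels after Ox-mtDNA. Of the 51 genes 44 had a negative log2 fold change, where 46.1% of all tested genes did, and their median was -0.92, against 0.06 over all tested genes. The lowest value was that of the schlafen gene Slfn5, at -2.34 (SE 1.22). Genes without overlap between the groups included the secreted glycoprotein gene Lgals3bp, the schlafen gene Slfn8 and Eif2ak2, which encodes a kinase activated by double-stranded RNA. Their values were -2.04 (SE 1.08), -1.90 (SE 0.56) and -1.86 (SE 0.77). The exceptions with a positive fold change were Rsad2, Oasl1, Mx2, Trim25, Ifitm3, Ifit1 and Epsti1. In bulk RNA, fewer cells that express a gene and less of its RNA per cell cannot be told apart.

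No antiviral gene passed the threshold in this comparison. The quasi-likelihood test of edgeR called 0 of 51 antiviral genes and 0 of 17555 tested genes (0%) at an adjusted p under 0.05, and the smallest adjusted p was 0.472. At an unadjusted p under 0.05 there were 1722 tested genes and 6 antiviral genes, all 6 lower, where 3.93% of tested genes were lower at that level. That number of antiviral genes was 2 without PBS replicate 2, 19 without mtDNA replicate 3 and 23 with the replicate block. DESeq2 called 370 genes and edgeR with the replicate number as a block called 1, and neither called an antiviral gene. The smallest adjusted p of an antiviral gene was 0.0504 in the DESeq2 Wald test and 0.127 in edgeR with the block. Levels did not overlap, with all 3 Ox-mtDNA libraries below all 3 PBS libraries, for 14 of the 51 antiviral genes and for 8.08% of tested genes. They were lower after Ox-mtDNA in every pair of same-numbered libraries for 31 antiviral genes, against 17.6% of tested genes. On the log2 scale the 51 genes had median differences of -1.35, -0.98 and -0.95 in the pairs of replicates 1, 2 and 3. In replicates 1 and 2 only the median fold change was -1.01. Without PBS replicate 2 the median was -0.58, and without Ox-mtDNA replicate 2 it was -1.41.

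Setting mtDNA against PBS addresses how the cells responded to mitochondrial DNA without the oxidized label. It shares its PBS libraries with the comparison above. The antiviral genes were higher after mtDNA in replicates 1 and 2 and mostly lower in replicate 3. All 51 were higher in the replicate 1 pair, where 49.7% of tested genes were, and all 51 in the replicate 2 pair, where 50.5% were, with medians of 0.74 and 0.75. In the replicate 3 pair 42 of the 51 were lower, where 46.9% of tested genes were, with a median of -1.05. Over all 9 libraries 49 had a positive fold change (52% of tested genes did), with a median of 0.56 against 0.02 over all tested genes. The 2 others were Slfn8 and Ly6e. The 49 became 31 without mtDNA replicate 2, 35 with limma-voom and 39 with the replicate block.

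Again no antiviral gene passed. edgeR called 0 of 51 antiviral genes and 0 of 17555 tested genes (0%) after mtDNA, with every adjusted p at 1 and 460 tested genes at an unadjusted p under 0.05. Rsad2 and Trim25 were the 2 antiviral genes at that level, both higher, where 2.02% of tested genes were higher. Levels did not overlap for 3 genes, Rsad2, Trim25 and Ifit2, a share near the 5.58% of all tested genes. Of the 51 genes 9 were higher in all 3 pairs, against 20.8% of tested genes. DESeq2 called 14 genes and no antiviral gene. With voom, which fits log counts, sample quality weights and the replicate block, limma called 1340 genes, among them 20 of the 51 antiviral genes, all higher. Those weights were 3.16, 3.90 and 0.57 for mtDNA replicates 1, 2 and 3 and 3.28, 1.98 and 0.24 for the PBS libraries. This fit thus counts replicate 3 of mtDNA and PBS little. The Ox-mtDNA libraries had 0.49, 0.16 and 1.2, with replicate 3 the highest. The median fold change of the 51 genes was 0.78 in replicates 1 and 2 only, 0.30 with the replicate block, 0.07 without mtDNA replicate 2 and 0.96 without mtDNA replicate 3.

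The comparison of Ox-mtDNA with mtDNA asked what oxidation of the DNA added, and it shares libraries with both comparisons above. All 51 antiviral genes had lower levels after Ox-mtDNA over the 9 libraries, where 45.7% of tested genes did. Their median log2 fold change was -1.60, against 0.04 over all tested genes. The difference stood in replicates 1 and 2, with medians of -2.07 and -1.72, and was 0.11 in replicate 3. At least 1 log2 unit lower were 42 antiviral genes in the replicate 1 pair (12.1% of tested genes), 40 in the replicate 2 pair (12.1%) and 1 in the replicate 3 pair (2.25%).

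edgeR called 0 of the 51 antiviral genes and 0 of 17555 tested genes (0%) after Ox-mtDNA relative to mtDNA, with every adjusted p at 1. At an unadjusted p under 0.05 there were 422 tested genes, and 19 antiviral genes were lower at that level, against 1.48% of tested genes. Leaving out mtDNA replicate 1, 2 or 3 gave 4, 2 or 33 antiviral genes at that level. DESeq2 called 1 gene, which was not an antiviral gene. For 0 antiviral genes were the 3 Ox-mtDNA libraries all below the 3 mtDNA libraries (2.79% of tested genes). In all 3 pairs 21 genes were lower, against 12.7% of tested genes. In the replicate 3 pair alone 22 of the 51 antiviral genes were lower, a share near that of tested genes, 7453 of 17555. In replicates 1 and 2 only, the median was -1.83 and edgeR called 0 genes, with a smallest adjusted p of 0.0532.

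**Figure D2:**
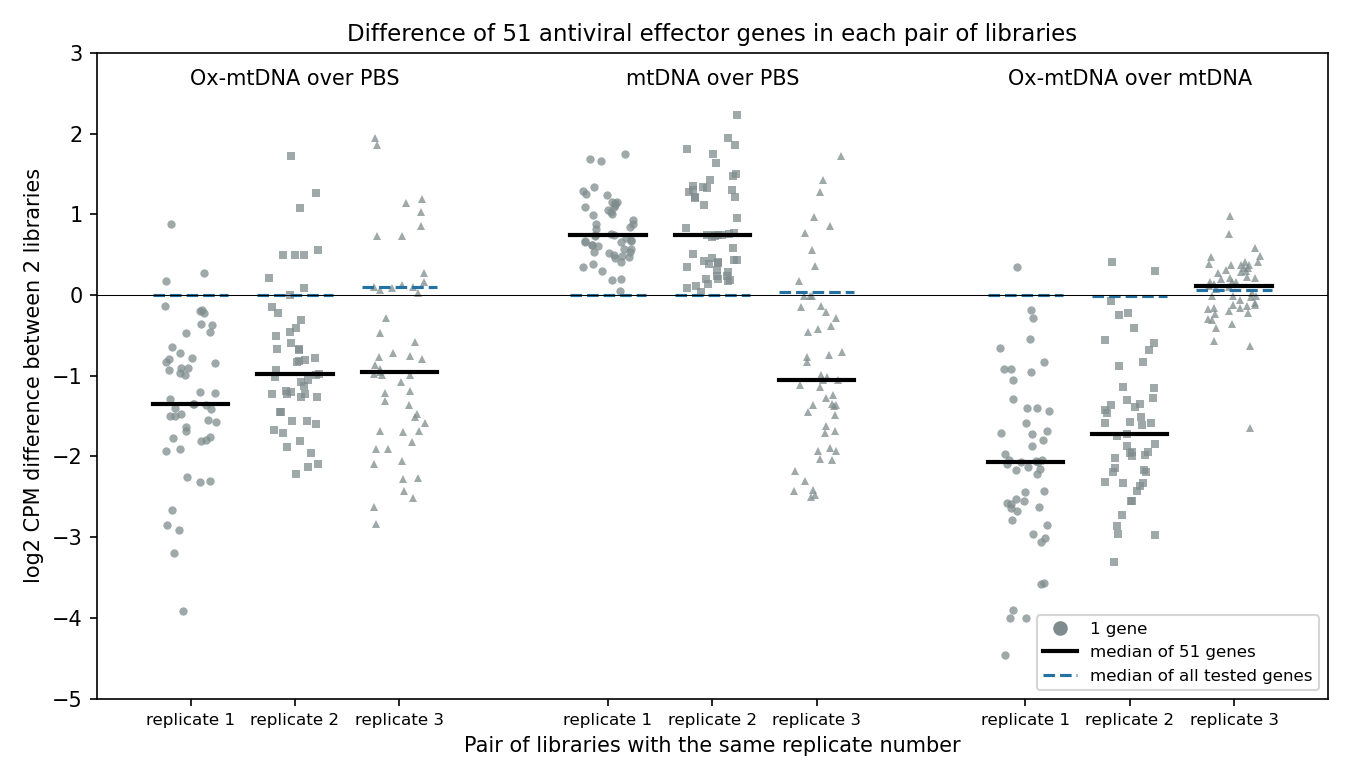
Log2 CPM difference of each of the 51 antiviral effector genes between 2 libraries of the same replicate number, for the 3 comparisons (x axis) with 1 point per gene, a black line at the median of the 51 genes and a dashed blue line at the median of all tested genes. The medians of mtDNA over PBS are 0.74, 0.75 and -1.05, and those of Ox-mtDNA over mtDNA are -2.07, -1.72 and 0.11.

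Summed over the 51 genes, the level was highest in mtDNA replicates 1 and 2. It was 3764.8, 4132.6 and 3533.2 CPM after Ox-mtDNA, 8617.2, 10541.7 and 3645.6 CPM after mtDNA, and 6039.4, 7983.4 and 5075.0 CPM in PBS replicates 1, 2 and 3. A large part of each sum was Ly6e, which was at 1135 to 2492 CPM. The highest of the 9 libraries was mtDNA replicate 1 or 2 for 49 of the 51 genes, as it was for 12.1% of all tested genes. Samd9l was highest in Ox-mtDNA replicate 3 and Trim25 in mtDNA replicate 3. The lowest library was one of Ox-mtDNA, or mtDNA replicate 3, for 46 of the 51 genes, and for 52.4% of all tested genes. Below, values are given in the order of replicates 1, 2 and 3, and fold changes are log2 values of the model over all 9 libraries with their standard error (SE), none of which passed the threshold in edgeR.

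**Figure D3:**
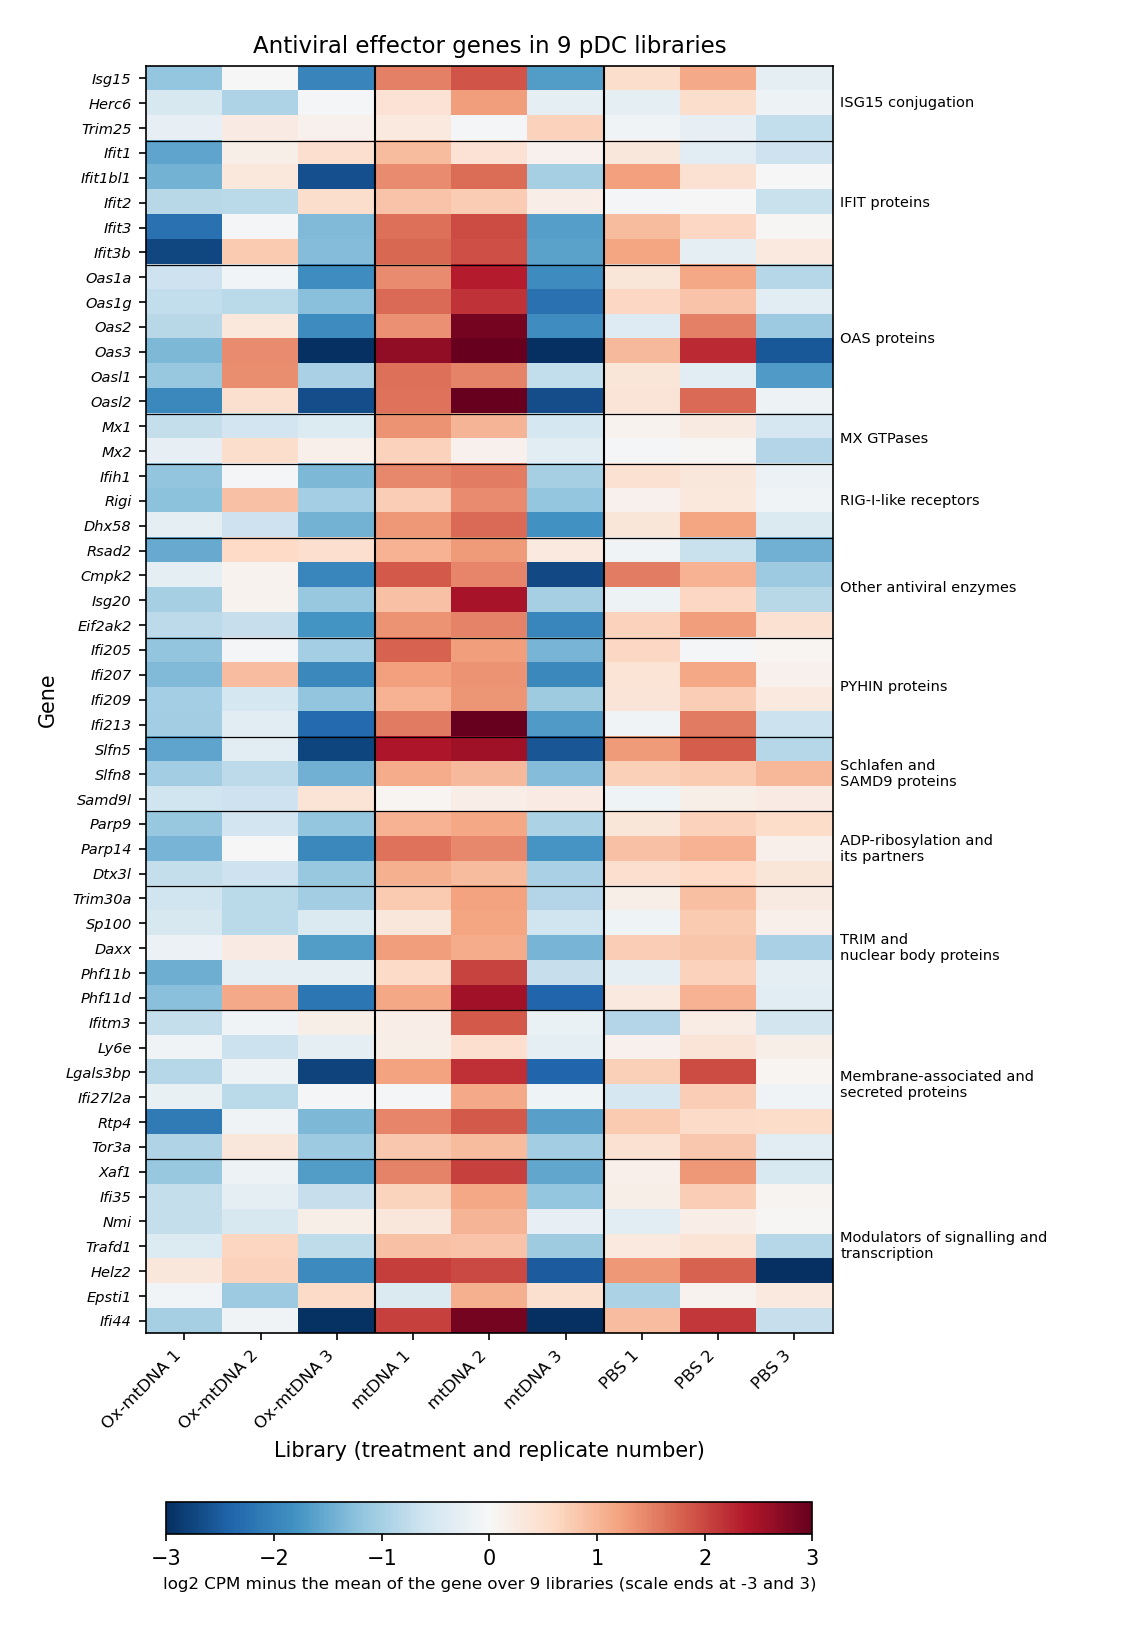
Log2 CPM of the 51 antiviral effector genes (rows, grouped by role) in the 9 libraries (columns), as the deviation from the mean of each gene over the 9 libraries, where red is higher and blue lower. The columns of mtDNA replicates 1 and 2 are red for nearly every gene, and those of mtDNA replicate 3 and Ox-mtDNA replicate 3 are blue for most.

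The RIG-I-like receptors are the cytosolic sensors of viral RNA. Of the 3 genes, 3 had negative fold changes after Ox-mtDNA relative to PBS and 3 had positive ones after mtDNA. In the replicate 3 pair of mtDNA with PBS all 3 were lower, with a median difference of -1.05 on the log2 scale. Ifih1, which encodes the long double-stranded RNA sensor MDA5 (chromosome 2, 62426142 to 62476555, GRCm39), was at 8.71, 19.1 and 7.74 CPM after Ox-mtDNA, 54.8, 58.3 and 9.95 CPM after mtDNA, and 27.4, 25.3 and 17.8 CPM in PBS. Every Ox-mtDNA library was below mtDNA replicates 1 and 2, while mtDNA replicate 3 was as low as the Ox-mtDNA libraries. Its fold change was -0.99 (SE 0.65) over PBS and -1.79 (SE 0.66) over mtDNA. Rigi, which encodes the sensor of RNA ends with a triphosphate, was at 5.74, 24.8 and 6.66 CPM after Ox-mtDNA, 22.7, 36.6 and 6.04 CPM after mtDNA, and 14.8, 16.8 and 12.6 CPM in PBS. Its groups overlapped in every comparison, with Ox-mtDNA replicate 2 above all PBS libraries. Dhx58, which encodes LGP2, a receptor of this family that modulates the others, was at 32.7, 25.9 and 14.8 CPM after Ox-mtDNA, 98.3, 130.1 and 11.3 CPM after mtDNA, and 51.4, 91.2 and 29.2 CPM in PBS. The mtDNA libraries of replicates 1 and 2 were the highest and mtDNA replicate 3 the lowest of the 9. Part of Dhx58 overlaps the gene Dhx58os on the other strand, and counting did not use strand, so a share of its reads may belong to that gene.

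ISG15 is a ubiquitin-like protein that is attached to host and viral proteins. Isg15 (chromosome 4, 156283912 to 156285253, GRCm39) was at 9.25, 20.9 and 5.16 CPM after Ox-mtDNA, 59.6, 77.1 and 6.42 CPM after mtDNA, and 29.9, 45.9 and 16.9 CPM in PBS. It was lower after Ox-mtDNA in every pair with PBS, with differences of -1.68, -1.13 and -1.69 log2 units, but its groups overlapped because Ox-mtDNA replicate 2 was above PBS replicate 3. The fold change was -1.39 (SE 0.88) over PBS, 0.63 (SE 0.86) for mtDNA over PBS and -2.02 (SE 0.89) for Ox-mtDNA over mtDNA. For mtDNA over PBS it ranged from 0.09 without mtDNA replicate 2 to 1.11 without mtDNA replicate 3, and the difference in the replicate 3 pair was -1.38. Herc6, which encodes the main mouse ligase that attaches ISG15, was at 22.7, 16.7 and 30.2 CPM after Ox-mtDNA, 43.02, 75.4 and 25.99 CPM after mtDNA, and 25.8, 45.6 and 28.5 CPM in PBS. Its highest library was mtDNA replicate 2, and its groups overlapped in each comparison; 26.6% of its exons overlap the gene Gm45193. Trim25, which encodes a ubiquitin and ISG15 ligase that acts on RIG-I (chromosome 11, 88890202 to 88911119, GRCm39), was at 320.3, 447 and 412 CPM after Ox-mtDNA, 465, 364 and 609.6 CPM after mtDNA, and 350.5, 318 and 227 CPM in PBS. Every mtDNA library was above every PBS library, and the Ox-mtDNA libraries overlapped both groups. Trim25 had a fold change of 0.68 (SE 0.29) for mtDNA over PBS and 0.40 (SE 0.29) for Ox-mtDNA over PBS.

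IFIT proteins bind the ends of viral RNA and block its translation. Of 5 genes 4 had negative fold changes after Ox-mtDNA relative to PBS and 5 had positive ones after mtDNA, although 3 of the 5 were lower in the replicate 3 pair of mtDNA with PBS. Ifit1, which binds RNA caps that lack methylation and whose promoter is printed above, was at 4.66, 15.97 and 20.2 CPM after Ox-mtDNA, 27.4, 19.01 and 15.6 CPM after mtDNA, and 17.8, 11.3 and 9.15 CPM in PBS. Its groups overlapped in every comparison, with Ox-mtDNA replicate 1 the lowest library. Ifit2, an IFIT protein that binds AU-rich RNA (chromosome 19, 34528110 to 34553819, GRCm39), was at 29.2, 29.5 and 75.5 CPM after Ox-mtDNA, 93.9, 88.4 and 59.97 CPM after mtDNA, and 50.8, 51.9 and 32.95 CPM in PBS. All 3 mtDNA libraries were above all 3 PBS libraries, with a fold change of 0.84 (SE 0.43), and Ox-mtDNA replicate 3 stood above the other 2 Ox-mtDNA libraries. Ifit3, whose product stabilises IFIT1 in human cells, was at 1.01, 5.03 and 2.01 CPM after Ox-mtDNA, 16.5, 20.3 and 1.58 CPM after mtDNA, and 10.1, 8.04 and 5.31 CPM in PBS. The 3 Ox-mtDNA libraries were below all PBS libraries, as was mtDNA replicate 3. Ifit3 and Ifit3b share 51.2% and 44.5% of their 50-base stretches, and the counting dropped fragments that align to more than one place, so both levels are uncertain. Ifit3b and Ifit1bl1 were low, at up to 4.24 and 1.93 CPM.

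OAS proteins sense double-stranded RNA and make the messenger that activates RNase L, and the OAS-like genes Oasl1 and Oasl2 belong to the same family. The median log2 fold change of the 6 genes was -2.49 for Ox-mtDNA over mtDNA and 1.26 for mtDNA over PBS. In the replicate 3 pairs the medians were 0.01 and -1.15, and 5 of the 6 were lower after mtDNA than in PBS. Oasl2 was at 6.08, 32.6 and 3.61 CPM after Ox-mtDNA, 73.02, 216 and 3.64 CPM after mtDNA, and 30.5, 76.3 and 21.03 CPM in PBS. Levels spanned a wide range within each treatment, and the lowest libraries were both replicate 3 libraries with mtDNA or Ox-mtDNA. Oasl1, which encodes a protein that inhibits translation of Irf7, was at 11.6, 68.2 and 13 CPM after Ox-mtDNA, 80.7, 71.96 and 15.3 CPM after mtDNA, and 32.98, 20.5 and 7.78 CPM in PBS. Ox-mtDNA replicate 2 was close to mtDNA replicate 2, and far above the other Ox-mtDNA libraries. Over PBS the fold change was 0.60 (SE 0.90), and without Ox-mtDNA replicate 2 it was -0.75. Oas3, which encodes the largest OAS protein, was at 3.17, 22.3 and 0.619 CPM after Ox-mtDNA, 52.4, 131 and 0.489 CPM after mtDNA, and 16.2, 38.98 and 1.33 CPM in PBS. It was low in all 3 replicate 3 libraries and highest in mtDNA replicate 2. Fold changes were -2.82 (SE 1.88) for Ox-mtDNA over mtDNA and 1.70 (SE 1.80) for mtDNA over PBS. Over mtDNA it was -5.03 without Ox-mtDNA replicate 2 and -1.62 without mtDNA replicate 2. The value for mtDNA over PBS was 0.49 without mtDNA replicate 2 and 2.80 without PBS replicate 2. Of the 6 OAS genes 5, all but Oasl1, were lower after Ox-mtDNA in each of the 3 pairs with PBS, and Oas1g did not overlap. Oas1a, Oas1g and Oas2 ranged up to 43.0, 3.20 and 42.0 CPM, each highest in mtDNA replicate 2. Oas1a and Oas1g share 57.6% and 54.1% of their 50-base stretches and their counts are uncertain.

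MX proteins are dynamin-like GTPases that trap viral nucleocapsids. Mx1 (chromosome 16, 97248237 to 97264106, GRCm39) was at 47.5, 53 and 58.97 CPM after Ox-mtDNA, 199.9, 159.8 and 54.6 CPM after mtDNA, and 84.5, 94.2 and 55.05 CPM in PBS. The Ox-mtDNA libraries lay within a narrow band that included mtDNA replicate 3 and PBS replicate 3, and mtDNA replicates 1 and 2 were the highest of the 9. Mx1 had a fold change of -1.38 (SE 0.46) over mtDNA, -0.55 (SE 0.45) over PBS and 0.83 (SE 0.46) for mtDNA over PBS. Mx2 was at 26.1, 44.5 and 34.2 CPM after Ox-mtDNA, 50.3, 33.6 and 24.6 CPM after mtDNA, and 29.9, 31.6 and 16.7 CPM in PBS. Its groups overlapped in all 3 comparisons, and it was among the 7 genes with a positive fold change after Ox-mtDNA.

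The other antiviral enzymes act on nucleotides, RNA or translation. Rsad2, which encodes viperin, an enzyme that makes a nucleotide that ends viral RNA chains (chromosome 12, 26492745 to 26506451, GRCm39), was at 19.4, 83.8 and 79.2 CPM after Ox-mtDNA, 114, 134 and 67.9 CPM after mtDNA, and 51.2, 34.7 and 20.5 CPM in PBS. Every mtDNA library was above every PBS library, with differences of 1.16, 1.95 and 1.72 log2 units in the 3 pairs and a fold change of 1.57 (SE 0.59). Ox-mtDNA replicates 2 and 3 were also above all PBS libraries and Ox-mtDNA replicate 1 was below them, and the fold change over PBS was 0.78 (SE 0.58). Cmpk2, the neighbouring nucleotide kinase gene, was at 17.8, 23.1 and 5.47 CPM after Ox-mtDNA, 76.7, 59.01 and 3.21 CPM after mtDNA, and 62.3, 44.03 and 10.1 CPM in PBS. It was low in all 3 replicate 3 libraries, lowest after mtDNA. Isg20, which encodes an RNA exonuclease, was at 4.79, 10.4 and 4.33 CPM after Ox-mtDNA, 17.8, 53.7 and 4.78 CPM after mtDNA, and 8.65, 14.7 and 5.31 CPM in PBS. Only mtDNA replicates 1 and 2 were above the highest PBS library, and its fold change was 1.41 (SE 0.82) for mtDNA over PBS and 0.24 without mtDNA replicate 2. Eif2ak2, which encodes PKR, the kinase that stops translation when it binds double-stranded RNA (chromosome 17, 79159993 to 79190002, GRCm39), was at 32.6, 34.6 and 16.1 CPM after Ox-mtDNA, 143, 158 and 14.4 CPM after mtDNA, and 90.7, 134 and 77.6 CPM in PBS. Each Ox-mtDNA library was below each PBS library, and mtDNA replicate 3 was the lowest of all. Over PBS its fold change was -1.86 (SE 0.77). Rsad2 and Eif2ak2, which both hold an ISRE core match, thus had fold changes of opposite sign after Ox-mtDNA.

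PYHIN proteins are nuclear and cytosolic proteins of the family that includes DNA sensors. All 4 genes had negative fold changes after Ox-mtDNA. Ifi209 (chromosome 1, 173458483 to 173475494, GRCm39) was at 62.6, 88.3 and 55.5 CPM after Ox-mtDNA, 263, 319 and 60.2 CPM after mtDNA, and 166, 213 and 155 CPM in PBS. All Ox-mtDNA libraries were below all PBS libraries, and mtDNA replicate 3 was with them. The fold change was -1.37 (SE 0.55) over PBS and -1.64 (SE 0.55) over mtDNA, and 34.7% of its 50-base stretches are shared with Ifi214, so its level is uncertain. Ifi207 was at 29.1, 139.8 and 19.1 CPM after Ox-mtDNA, 174, 186 and 19.2 CPM after mtDNA, and 98.3, 163 and 79.9 CPM in PBS. Ox-mtDNA replicate 2 stood among the PBS libraries while Ox-mtDNA replicates 1 and 3 and mtDNA replicate 3 were low. Ifi213 was at 2.30, 3.86 and 0.877 CPM after Ox-mtDNA, 14.3, 39.1 and 1.41 CPM after mtDNA, and 4.47, 14.5 and 3.04 CPM in PBS. It was highest in mtDNA replicate 2, and its fold change was -2.96 (SE 1.17) for Ox-mtDNA over mtDNA. Ifi205, which is also on the list of markers of type 1 conventional dendritic cells (cDC1), ranged from 1.58 to 14.9 CPM.

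Schlafen proteins restrict viral replication in part through transfer RNA, and SAMD9L is a restriction factor of poxviruses. Slfn8 (chromosome 11, 82892984 to 82911636, GRCm39) was at 43, 52.2 and 33.02 CPM after Ox-mtDNA, 192, 175 and 35.9 CPM after mtDNA, and 147, 154 and 178 CPM in PBS. It averaged 42.7 ± 9.60 CPM after Ox-mtDNA and 159.8 ± 15.96 CPM in PBS (SD, n = 3 each), and the groups did not overlap. Its fold change was -1.90 (SE 0.56) over PBS, with pair differences of -1.77, -1.56 and -2.42, and its adjusted p in edgeR was 0.472. In mtDNA replicate 3 it was at the Ox-mtDNA level, and in mtDNA replicates 1 and 2 near or above the PBS level. Slfn5 (chromosome 11, 82842928 to 82855666, GRCm39) was at 28.6, 69.2 and 12.6 CPM after Ox-mtDNA, 459, 505 and 14.5 CPM after mtDNA, and 208, 305 and 47.5 CPM in PBS. It was lower after Ox-mtDNA in each pair with PBS, with differences of -2.85, -2.14 and -1.90 log2 units, and PBS replicate 3 overlapped Ox-mtDNA replicate 2. Its fold change over mtDNA was -3.15 (SE 1.26). Of its exons 9.3% overlap Slfn5os on the other strand, so a share of its reads may belong to that gene. Samd9l was at 82.1, 80.3 and 164 CPM after Ox-mtDNA, 129.5, 143 and 146 CPM after mtDNA, and 113, 138 and 147 CPM in PBS. Groups overlapped in each comparison, and Ox-mtDNA replicate 3 was the highest library.

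PARP9 and DTX3L form a complex that joins ADP-ribosylation with ubiquitination, and PARP14 is a further ADP-ribosyltransferase of the same locus on chromosome 16. For all 3 genes every Ox-mtDNA library was below every PBS library. Parp9 (chromosome 16, 35758840 to 35792975, GRCm39) was at 45.2, 66.9 and 44.5 CPM after Ox-mtDNA, 204, 221 and 51.7 CPM after mtDNA, and 128, 160.5 and 144 CPM in PBS. The groups Ox-mtDNA and PBS did not overlap, and mtDNA replicate 3 was at the Ox-mtDNA level. The fold change was -1.47 (SE 0.50) over PBS and -1.60 (SE 0.50) over mtDNA. Dtx3l (chromosome 16, 35746881 to 35759521, GRCm39), the head-to-head neighbour of Parp9, was at 85.5, 91.7 and 63.9 CPM after Ox-mtDNA, 296, 273 and 71.6 CPM after mtDNA, and 199, 214 and 182 CPM in PBS. Its groups did not overlap either and mtDNA replicate 3 was again at the Ox-mtDNA level, with a fold change of -1.30 (SE 0.48) over PBS and -1.41 (SE 0.48) over mtDNA. The 2 genes overlap over 10.3% of the exons of Parp9 and 6.4% of those of Dtx3l, and fragments there were counted for both. Parp14 was at 57.05, 148 and 38.8 CPM after Ox-mtDNA, 459, 405 and 43.4 CPM after mtDNA, and 273, 306 and 165 CPM in PBS. Ox-mtDNA replicate 2 was closest to PBS replicate 3, and the fold change was -1.61 (SE 0.83) over PBS.

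**Figure D4:**
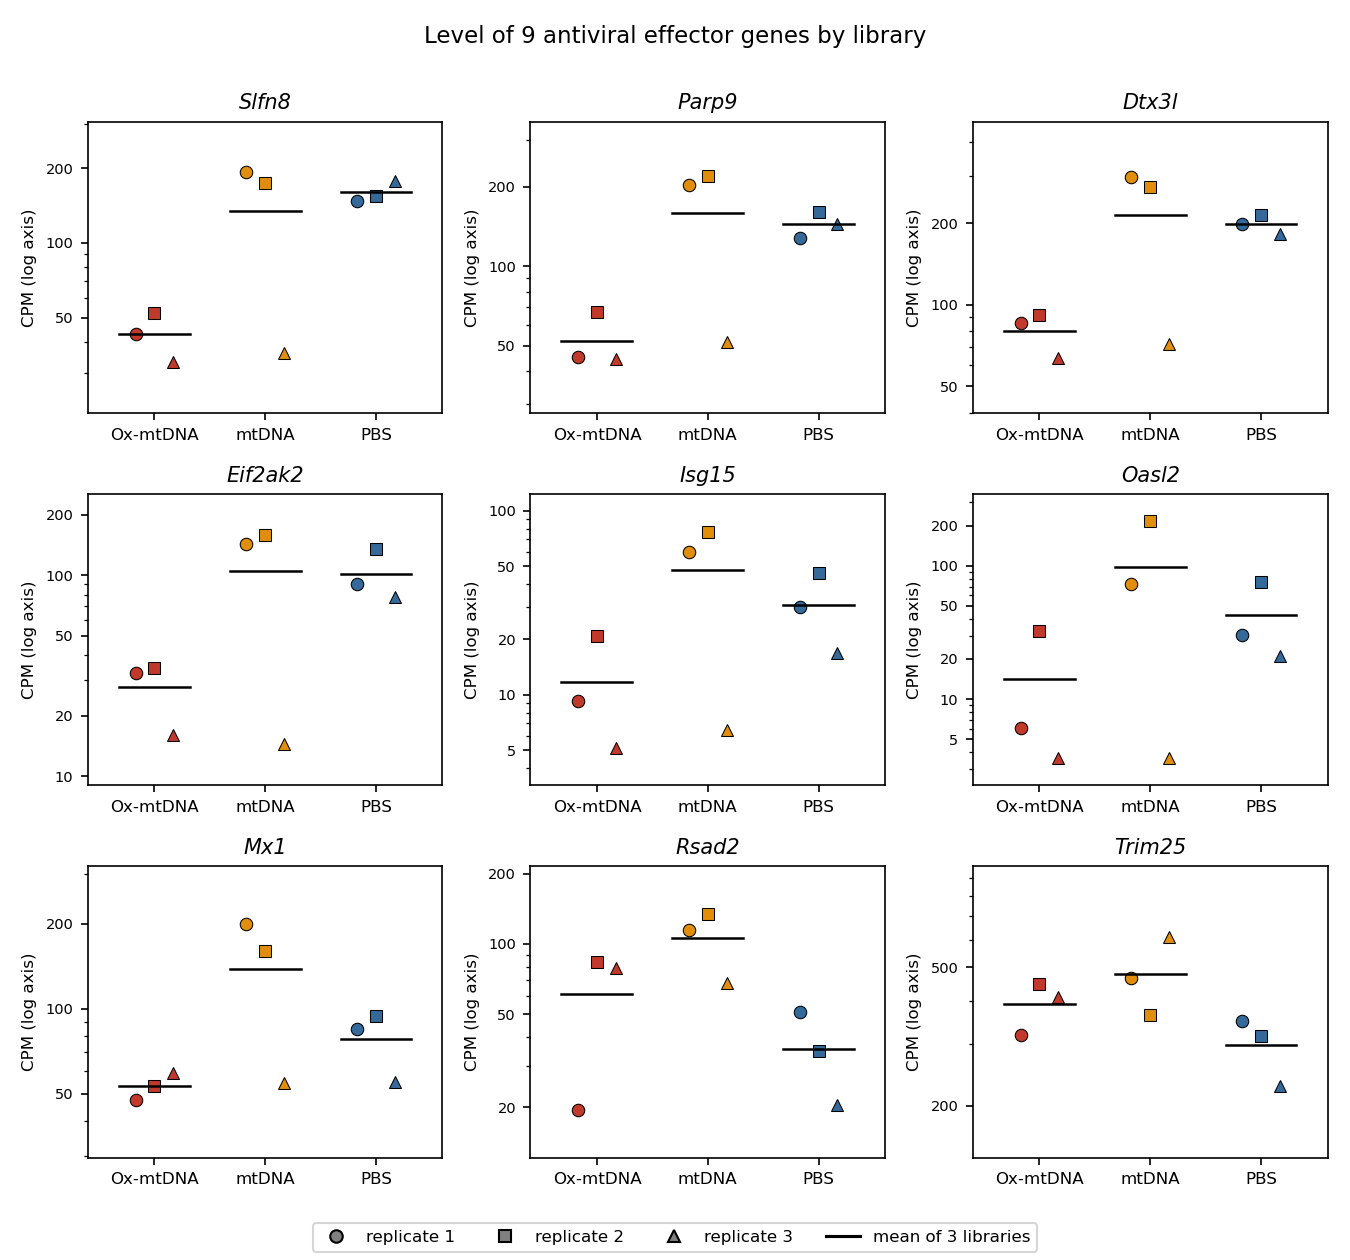
CPM (log axis) of 9 antiviral effector genes in the 9 libraries, with 1 marker per library, its shape for the replicate number, and a line at the mean of the 3 libraries of a treatment. Slfn8, Parp9, Dtx3l and Eif2ak2 do not overlap between Ox-mtDNA and PBS, mtDNA replicate 3 lies below the highest Ox-mtDNA library in the first 7 genes, and Rsad2 and Trim25 are higher in all mtDNA libraries than in PBS.

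Among TRIM and nuclear body proteins, all 5 genes had negative fold changes after Ox-mtDNA relative to PBS and to mtDNA. In the replicate 3 pair of Ox-mtDNA with mtDNA 3 of the 5 were higher. Trim30a, a mouse TRIM protein known to dampen Toll-like receptor signalling (chromosome 7, 104058232 to 104114400, GRCm39), was at 266, 230.4 and 195 CPM after Ox-mtDNA, 699, 934 and 219 CPM after mtDNA, and 456, 752 and 485 CPM in PBS. Ox-mtDNA and PBS did not overlap, with a fold change of -1.29 (SE 0.49), and relative to mtDNA it was -1.42 (SE 0.49). Sp100, a component of PML nuclear bodies, was at 254, 202 and 262 CPM after Ox-mtDNA, 449, 799 and 235 CPM after mtDNA, and 326, 611 and 394 CPM in PBS. It too did not overlap between Ox-mtDNA and PBS. Daxx, a histone chaperone of the same bodies, was at 58.1, 76.96 and 20.3 CPM after Ox-mtDNA, 157, 142 and 24.96 CPM after mtDNA, and 109, 116 and 33.5 CPM in PBS. It was low in every replicate 3 library, and its groups overlapped. Phf11b and Phf11d, PHD finger genes of which Phf11b shares 47.0% of its 50-base stretches with other genes, ranged from 9.25 to 105 CPM and from 0.163 to 7.77 CPM, with overlap in each comparison.

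Membrane-associated and secreted products included the most abundant gene of the list per length. Ly6e, a membrane-anchored protein that blocks coronavirus entry, had a mean over the 9 libraries of 785 CPM per kilobase of exons, followed by Ifi27l2a at 163 and Trim30a at 125, while Ifit1bl1 was lowest at 0.357. Ly6e was at 1636, 1135 and 1430.0 CPM after Ox-mtDNA, 1992, 2492 and 1442 CPM after mtDNA, and 1915, 2297 and 1986 CPM in PBS. All Ox-mtDNA libraries were below all PBS libraries, with a fold change of -0.56 (SE 0.28), and mtDNA replicate 3 lay among the Ox-mtDNA libraries. Lgals3bp, a secreted glycoprotein that binds galectin-3, was at 37.9, 62.2 and 9.96 CPM after Ox-mtDNA, 158, 313 and 13.2 CPM after mtDNA, and 113, 266 and 71.8 CPM in PBS. It did not overlap between Ox-mtDNA and PBS, and its fold change was -2.04 (SE 1.08). Ifi27l2a, which encodes a small hydrophobic protein, was at 59.1, 39.5 and 66.9 CPM after Ox-mtDNA, 67.4, 154 and 63.5 CPM after mtDNA, and 48.8, 117 and 64.04 CPM in PBS. Its groups overlapped and its highest library was mtDNA replicate 2. Ifitm3, which stops viruses from leaving endosomes (chromosome 7, 140589499 to 140590683, GRCm39), was at 19.8, 30.4 and 36.9 CPM after Ox-mtDNA, 37.6, 118 and 28.4 CPM after mtDNA, and 17.5, 37.8 and 22.1 CPM in PBS. It was higher after mtDNA in each pair with PBS, by 1.10, 1.63 and 0.36 log2 units, with a fold change of 1.25 (SE 0.58) and of 0.34 without mtDNA replicate 2. Rtp4 was at up to 8.87 CPM and its levels did not overlap between Ox-mtDNA and PBS, although 15.2% of its exons overlap the gene Gm45338. Tor3a ranged from 28.5 to 117 CPM with overlap of the groups.

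The modulators of signalling and transcription were mixed. Of 7 genes 6 had negative fold changes after Ox-mtDNA relative to PBS, and in the replicate 3 pair 4 of the 7 were higher. Helz2, a nuclear receptor coactivator, was at 134, 170.3 and 27.9 CPM after Ox-mtDNA, 440.0, 412 and 18.6 CPM after mtDNA, and 261, 359.9 and 7.63 CPM in PBS. All 3 replicate 3 libraries were low, PBS replicate 3 the lowest, and groups overlapped. Trafd1, a negative regulator of innate signalling, was at 116, 241 and 92.04 CPM after Ox-mtDNA, 284, 282 and 74.7 CPM after mtDNA, and 192, 208 and 86.1 CPM in PBS. Its groups overlapped in each comparison. Ifi35, which forms a complex with NMI, was at 38.6, 53.2 and 39.7 CPM after Ox-mtDNA, 102, 143 and 28.3 CPM after mtDNA, and 72.5, 106 and 67.04 CPM in PBS. All Ox-mtDNA libraries were below all PBS libraries, although 17.4% of its exons overlap Gm11626 on the other strand. The others, Xaf1, Nmi, Epsti1 and Ifi44, overlapped between Ox-mtDNA and PBS.

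The interferon genes and the pathway upstream of the antiviral genes were measured in the same libraries. Ifnb1, the interferon beta gene, was at 7.16, 0.264 and 35.2 CPM after Ox-mtDNA, 0.320, 0 and 48.9 CPM after mtDNA, and 0.0465, 0 and 0 CPM in PBS. It was highest in Ox-mtDNA replicate 3 and mtDNA replicate 3, where the antiviral genes were low. In mtDNA replicates 1 and 2, where they were highest, it was at or near 0. In PBS replicate 3 it was at 0 CPM too, and the antiviral genes were about as low. Their median log2 CPM was 4.40 there, 4.26 and 3.97 in Ox-mtDNA and mtDNA replicate 3, and 4.51 in Ox-mtDNA replicate 1. Over all tested genes the median was 3.03 to 3.26 in replicate 3 libraries and 3.81 to 3.96 in those of replicates 1 and 2. A link with Ifnb1 was not tested. Of the 20 type I and III interferon genes listed 2 passed the filter on low counts, Ifnb1 and Ifna2, and Ifna2 was not above 2.45 CPM in any library. Ifnar1, a receptor chain, was at 189, 318 and 176 CPM after Ox-mtDNA, 378, 492 and 284 CPM after mtDNA, and 359, 393 and 399.9 CPM in PBS. Ox-mtDNA libraries were below all PBS libraries for it.

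Stat2 was at 203, 117 and 159.7 CPM after Ox-mtDNA, 395, 391 and 183 CPM after mtDNA, and 304, 449 and 239 CPM in PBS. Irf9 was at 103, 128 and 72.2 CPM after Ox-mtDNA, 181, 163 and 74.7 CPM after mtDNA, and 156, 161 and 169 CPM in PBS. For both of these subunits of the complex that binds the ISRE, each Ox-mtDNA library was below each PBS library, and mtDNA replicate 3 was low as well. Irf7, itself induced by interferon, was at 76.2, 73.7 and 43.5 CPM after Ox-mtDNA, 303, 437 and 31.9 CPM after mtDNA, and 155, 310.1 and 80.8 CPM in PBS. Usp18, which removes ISG15 and blocks the receptor, was at 18.97, 33.9 and 15.4 CPM after Ox-mtDNA, 170.0, 143 and 16.4 CPM after mtDNA, and 70.5, 66.2 and 33.4 CPM in PBS. Usp18 had its highest values in mtDNA replicates 1 and 2, and Irf7 was highest in mtDNA replicate 2. Of 19 interferon signalling genes tested, 14 had negative fold changes after Ox-mtDNA relative to PBS (median -0.67), 15 relative to mtDNA (median -0.58), and 11 had positive ones after mtDNA relative to PBS (median 0.06). The medians in the replicate 3 pairs were -0.67, -0.11 and -0.49 in the same order. edgeR called 0 of the 19 in each comparison, and 5, 5 and 0 were at an unadjusted p under 0.05, where 1722, 422 and 460 of the 17555 tested genes were.

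**Figure D5:**
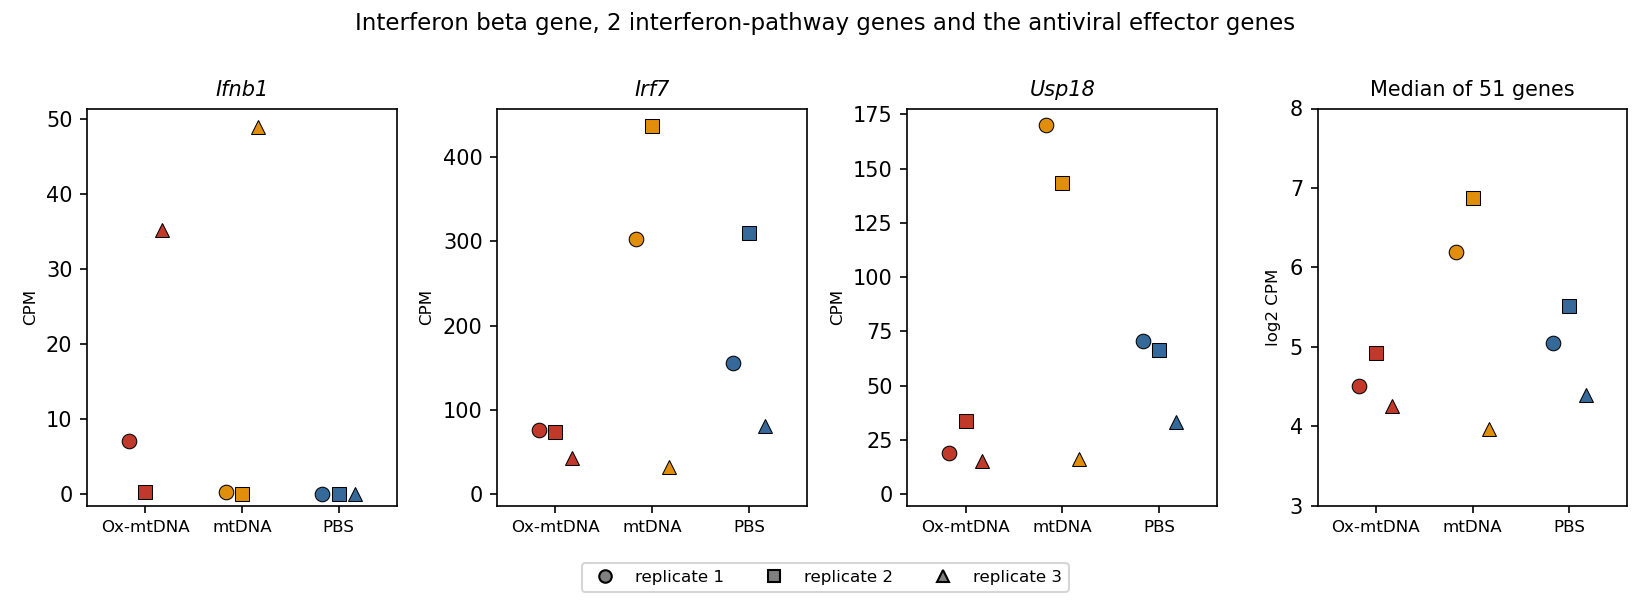
CPM of Ifnb1, Irf7 and Usp18 and the median log2 CPM of the 51 antiviral effector genes in each of the 9 libraries, by treatment, with marker shape for the replicate number. Ifnb1 is at 35.2 and 48.9 CPM in the replicate 3 libraries of Ox-mtDNA and mtDNA, in which the median of the antiviral genes is 4.26 and 3.97. In PBS replicate 3 Ifnb1 is at 0 CPM and that median is 4.40.

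Cell type markers varied beside these results, and their part in the antiviral differences was not tested. Siglech, a surface receptor of mouse pDCs, was at 1796, 1194 and 2015 CPM after Ox-mtDNA, 1766, 2192 and 1851 CPM after mtDNA, and 1717, 2258 and 2439.8 CPM in PBS, and none of the 24 pDC markers was at 0 in any library. The summed level of pDC markers was 8982 to 15530 CPM after Ox-mtDNA, 12760 to 19510 CPM after mtDNA and 17230 to 21530 CPM in PBS. Of the 24 markers 20 had negative fold changes after Ox-mtDNA relative to PBS (median -0.66) and 19 after mtDNA (median -0.39). In the pairs of replicates 1, 2 and 3 their median differences from PBS were -0.24, -1.33 and -0.47 after Ox-mtDNA and -0.22, -0.19 and -0.33 after mtDNA. B cell markers summed to 3696 to 4408 CPM after Ox-mtDNA, 2910 to 3952 CPM after mtDNA and 3690 to 4517 CPM in PBS, and all 16 had negative fold changes after mtDNA relative to PBS (median -0.55, with -0.49, -0.95 and -0.35 in the 3 pairs). Sums in the same order of treatments were 539 to 577, 435 to 750 and 571 to 784 CPM for cDC1 and 691 to 1379, 699 to 1675 and 656 to 844 CPM for type 2 conventional dendritic cells. For monocytes and macrophages they were 795 to 1022, 792 to 1087 and 970 to 1941 CPM, and for T cells 395 to 563, 333 to 714 and 442 to 695 CPM. Ccr2 alone held 1486 of the 1941 CPM, those of PBS replicate 3. Of the 13 monocyte and macrophage markers tested, 9 had positive fold changes after Ox-mtDNA relative to PBS (median 0.29) and 4 negative ones. Their median differences in the 3 pairs were -0.14, 0.55 and 0. After mtDNA 5 were positive and 8 negative (median -0.11). NK cell markers summed to 38.7 to 80.6, 70.6 to 83.4 and 63.9 to 183.5 CPM, neutrophil markers to at most 22.7 CPM and erythroid markers to at most 1.43 CPM in any library. Of the T cell markers, Cd28 and Il7r were at 126 to 320 and 134 to 343 CPM, and Cd3d, Cd3e and Cd3g were at most 2.89, 1.14 and 0.793 CPM. The NK cell marker Gzmb was at 0.405, 6.88 and 3.15 CPM after Ox-mtDNA, 1.07, 1.10 and 2.39 CPM after mtDNA and 0.233, 0 and 0.190 CPM in PBS.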

How the data were processed

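The authors deposited raw counts per gene from 9 libraries of sorted mouse pDCs, together with exon lengths. Reads were trimmed with fastp 0.23.4, aligned with STAR 2.7.11b to GRCm39 and counted with featureCounts 2.0.1, per the submitters' processing notes. Per the file headers, paired fragments were counted over exons of GENCODE M34 basic genes, for every gene they overlapped, without strand and without fragments of several alignments. Per the labels' protocols, RNA was extracted with TRIzol and a column, selected with poly-T beads and primed with random hexamers.

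Genes with enough counts for a minimum count of 10 (filterByExpr) were tested with the robust quasi-likelihood F-test of edgeR 4.0.16 in R 4.3.3, with TMM factors, 1 fit over all 9 libraries and Benjamini-Hochberg adjustment over 17555 genes in each comparison, at a threshold of 0.05. The steps were tested on simulated counts for Ox-mtDNA over PBS only, with the same spread for all genes and no replicate effect. That test does not cover replicates as far apart as those here. Per-library CPM used TMM-scaled library sizes, and pair differences used log2 CPM with a prior count of 2. DESeq2 1.42.0 and limma 3.58.1 were alternatives, as were other normalizations, filters, the replicate block and leaving out libraries. The same replicate numbers were taken as pairs because deviations of same-numbered libraries from their group means correlated at 0.487 to 0.897 over tested genes. Replicates 1 and 2 also correlated across numbers, at 0.524 to 0.708. Deviations from a group mean sum to 0, and replicate 3 stood apart in each group. These values therefore cannot establish the pairing of replicates 1 and 2. For Ox-mtDNA with PBS they were 0.596 and 0.487 in the same-numbered pairs, and 0.549 and 0.614 across numbers. For mtDNA with PBS they were 0.781 and 0.768, and 0.683 and 0.708. For Ox-mtDNA with mtDNA they were 0.589 and 0.653, and 0.656 and 0.524. The antiviral genes and all lists were chosen with earlier results of these data known. Values in every library are given for the 3 genes with the highest mean CPM in each role group, for the 6 smallest unadjusted p in each comparison, and for Ifnb1, Irf7, Stat2, Irf9, Usp18, Ifnar1 and Siglech. One further gene of that rule is not reported here. All other antiviral genes are given by count or range.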

Additional observations from a re-analysis of the deposited data

How the results depend on the processing

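Every alternative kept the direction of the median fold change of the 51 antiviral genes in all 3 comparisons, and leaving out 1 library at a time gave medians of -1.41 to -0.58 for Ox-mtDNA over PBS, 0.07 to 0.96 for mtDNA over PBS and -2.02 to -1.08 for Ox-mtDNA over mtDNA. The number of called genes depended on the tool. The DESeq2 Wald test called 370, 14 and 1 genes in Ox-mtDNA over PBS, mtDNA over PBS and Ox-mtDNA over mtDNA, and limma-voom, with both the replicate block and weights for sample quality, called 420, 1340 and 14. In Ox-mtDNA over PBS, 25 genes were called in replicates 1 and 2 only, 1 with the replicate block in edgeR and 1 with a GC offset and the replicate block. With the replicate block added, the 25 became 0. The block in edgeR changed no call of an antiviral gene. Antiviral genes were called in 1 alternative, the weighted limma-voom fit, with 20 in mtDNA over PBS, among them Rsad2, Ifitm3, Ifit2, Mx1, Isg20, Isg15 and Oas3. The cause was not tested. Leaving out each library left 0 called genes in each comparison. The fold change of Oasl1 in Ox-mtDNA over PBS was -0.75 without Ox-mtDNA replicate 2, in a range of -0.75 to 1.12 over the libraries left out. Without mtDNA replicate 2 the fold change of Ifi213 in Ox-mtDNA over mtDNA was -1.75, and without mtDNA replicate 1 that of Mx1 in mtDNA over PBS was 0.46. Rsad2 in Ox-mtDNA over PBS was 0.45 without Ox-mtDNA replicate 2. The GC offset, in 20 bins of the longest GENCODE transcript of each gene, was chosen after seeing the data, because the planned offset from a genome of the build of the files was not run. With 3 libraries a group and 6 residual degrees of freedom, differences smaller than the spread between replicates were not detectable. Some larger ones were not called either. Slfn8 did not overlap between Ox-mtDNA and PBS, and its adjusted p in edgeR was 0.472.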

Other observations

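Beyond the 51 antiviral effector genes, 78 other interferon-stimulated genes were tested, a list that includes transcription factors, chemokines and immune GTPases and shares some members, such as Stat2, Irf7 and Usp18, with the signalling genes. Of these, 69 had negative fold changes after Ox-mtDNA relative to PBS (median -0.86), and 75 after Ox-mtDNA relative to mtDNA (median -1.10). After mtDNA 59 had positive fold changes relative to PBS (median 0.31). In the pairs of replicates 1, 2 and 3 the median differences were -0.90, -0.91 and -0.74 for Ox-mtDNA over PBS, -1.54, -1.35 and -0.03 for Ox-mtDNA over mtDNA, and 0.56, 0.38 and -0.69 for mtDNA over PBS. edgeR called 0 of the 78 in each comparison. At an unadjusted p under 0.05 were 22, 29 and 4 of the 78 in the same order, and 1722, 422 and 460 of the 17555 tested genes. The genes named next were chosen after their values were seen. Cd274, which encodes the checkpoint ligand PD-L1, was at 74.5, 70.9 and 221 CPM after Ox-mtDNA, 26.6, 32.3 and 449 CPM after mtDNA, and 17.2, 18.1 and 10.6 CPM in PBS. Cxcl10, a chemokine that draws T cells, was at 19.04, 25.02 and 37.1 CPM after Ox-mtDNA, 66.9, 22.3 and 69.6 CPM after mtDNA, and 18.5, 4.07 and 4.37 CPM in PBS. Both were higher in every Ox-mtDNA library and in every mtDNA library than in every PBS library, unlike most of the antiviral genes. Trex1, which encodes a DNA exonuclease, was at 71.4, 74.5 and 56.6 CPM after Ox-mtDNA, 149, 144 and 84.8 CPM after mtDNA, and 135, 156 and 173 CPM in PBS. Its Ox-mtDNA libraries were all below its PBS libraries.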
